A study of Mus musculus with 3 samples.

Results

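The transcription factors that set the stem, erythroid and megakaryocytic programs of blood were followed in HoxA9-Meis1 AML cells. These are mouse acute myeloid leukaemia cells of strain C57Bl/6, isolated from bone marrow and named for the homeobox factors Hoxa9 and Meis1. The factors are Gata1, Gata2, Zfpm1, Klf1, Gfi1b, Tal1, Lmo2, Nfe2, Runx1 and Myb. They were taken by gene symbol from the probe annotation of the arrays. All 10 are on the array, with 12 probes of 55657, among 34770 gene and transcript names. All cells were kept for 24 h in SFEM medium. They were left untreated, given 3.4 µM of the compound Pyrydopyrazine A2, or given all-trans retinoic acid (RA) with 1α-hydroxy-D3 vitamin (D3V) at 10 µM each. The labels do not say how many animals or cultures the cells came from. Each condition was measured on 1 array, so every difference below is between single arrays. No test across samples could be run.

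GATA2 and RUNX1 act early in blood formation and keep stem and progenitor cells. GATA1 takes over from GATA2 in red cell and megakaryocyte precursors, and works there with its cofactor FOG1 (Zfpm1), the adaptor LMO2, the helix-loop-helix factor TAL1, the globin activator KLF1, the leucine zipper factor NF-E2 and the repressor GFI1B. MYB maintains proliferation of immature blood cells, and many acute myeloid leukaemias depend on it.

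The sources disagree on which treated array is which. In the authors' deposited value table, the column labelled RA plus D3V has the ranks of the scanner array labelled A2 (Spearman's rho of 1 over all spots). Its column labelled A2 has the ranks of the scanner array labelled RA plus D3V (rho of 1). Arrays are named here by their scanner labels, so each direction is that of "the array labelled A2", and need not be that of the compound. The words "with A2" and "with RA plus D3V" below likewise name the array so labelled. Cyp24a1 and Cyp26a1, enzymes that vitamin D and retinoic acid are known to induce, were detected on 1 array, the one labelled A2 (levels 6.07 and 2.11). No scanner array has the ranks of the table's control column (highest rho 0.936, with the untreated array). It serves below as a second set of control values of unknown origin.

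Between 46.0% and 46.8% of 59305 non-control spots were well above background on each array, and 0 spots were saturated. A level below is log2 of a spot's processed signal over the 75th percentile of its array, and a difference is a difference of such levels. Spots of 1 probe printed 10 times had a median SD of 0.0606 to 0.0703 on this scale. The difference of the A2 array from untreated changed between the scanner control and the value table's control with an SD of 0.281 over 17279 genes. Hoxa9 was well above background on all 3 arrays (levels 4.34 untreated, 4.72 RA plus D3V, 5.53 A2), as were the leukocyte marker Ptprc and the myeloid enzyme gene Mpo. Meis1, the other factor that names the cells, gave no signal well above background on these arrays. In such bulk RNA, fewer cells of a type and less RNA per cell cannot be told apart.

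The probes that carry the differences described below are shown by the last 30 of their 60 bases, 5′ to 3′, with any AATAAA, the polyadenylation signal, in capitals. The readout of Gata2, Gfi1b and Myb rests on 1 such probe each and that of Runx1 on 2.
Gata2, probe A_52_P233441: gttttattttgaaactcgttttttgggtcc
Gfi1b, probe A_51_P370678: gttgatgtaaatgtaAATAAAggtgggttt
Runx1, probe A_51_P206585: actgttgttacagtggaggacttggtcaaa
Runx1, probe A_55_P2183438: atcccggagggaaactgtgaatgcttctga
Myb, probe A_55_P2017826: taaagctatcctcttattttacatacttcc
Of these 5 stretches that of Gfi1b holds the signal. Over the full 60 bases it lies in 5 of the 12 probes of the factors and in 10.1% of all probes. None of the 12 probes has a stretch of 8 or more alternating G and T bases.

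Of the 10 factors, 7 were well above background on all 3 arrays: Gata2, Zfpm1, Gfi1b, Lmo2, Nfe2, Runx1 and Myb. On the array labelled A2, Gata2 and Gfi1b were far below the untreated level. Runx1 and Myb lay below it by less than 2-fold, and Lmo2, Nfe2 and Zfpm1 above it by less than 2-fold. In all, 2 of 7 were at least 2-fold lower and 0 at least 2-fold higher, where 6.46% and 7.92% of 17279 genes were. The median difference of the 7 was -0.59, against -0.031 over all genes. With the stricter filter on dim probes, which leaves out Gfi1b, the median was -0.071. On the array labelled RA plus D3V all 7 lay above the untreated level, with 0 at least 2-fold higher and 0 at least 2-fold lower, where 7.78% and 5.06% of genes were. Their median there was 0.54, and 48.2% of all genes were above the untreated array.

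**Figure D1:**
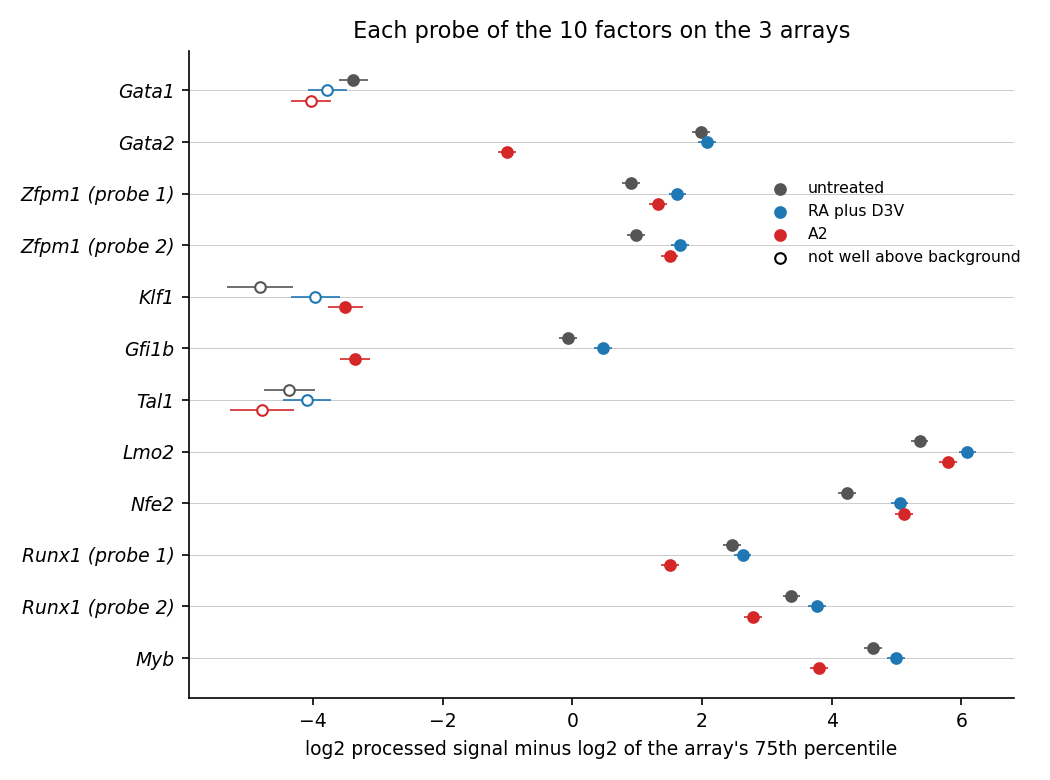
Level of every probe of the 10 factors (horizontal axis, log2 of the processed signal over its array's 75th percentile) on the arrays labelled untreated, RA plus D3V and A2. Each point is 1 spot, bars are the scanner software's error, and open points were not well above background; Gata2 and Gfi1b are far to the left on the A2 array (-1.01 and -3.36), and probes of different genes are not to be compared.

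Gata2, the early haematopoietic GATA factor, is read by probe A_52_P233441 at chromosome 6, 88156362 to 88156421, forward strand (mm9). Its processed signal was 1418 ± 142 on the untreated array, 1227 ± 123 on the RA plus D3V array and 136 ± 14.1 on the A2 array, where ± is the scanner software's error of the spot. The untreated and RA plus D3V signals were close and the A2 signal was low. After scaling, the levels were 1.98, 2.08 and -1.01. Gata2 was 7.96-fold lower on the A2 array than on the untreated array (difference -2.99 ± 0.21). Its difference on the RA plus D3V array was 0.092 ± 0.20, within the software's error. That error was near 10% of the signal for the bright spots of all the factors. A ± of about 0.20 is therefore not a spread measured over repeats of a probe. In the authors' deposited value table the A2 array lay -2.92 from the table's own control, so the second control gives nearly the same size.

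Gata1, the erythroid GATA factor, is read by probe A_55_P2046852 at chromosome X, 7536392 to 7536451, reverse strand (mm9). Its signal was 34.3 on the untreated array (software error 16.8%), which was well above background. It was 21.1 (23.1%) and 16.7 (23.9%) on the RA plus D3V and A2 arrays, which were not. Nominal bounds are 1.57-fold lower on the A2 array and 1.32-fold lower on the RA plus D3V array. A bound is the brighter array's scaled signal over the larger of the dimmer probe's own and the lowest signal well above background on that array. On the log2 scale the A2 bound is -0.65 with a software error of 0.42, and the RA plus D3V bound is -0.40, about equal to its error of 0.41. For Gata1 the dimmer probe's own signal was the larger on both arrays. Each bound is therefore the plain difference and not a sure minimum. In the value table the differences were smaller, at -0.37 and -0.36.

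Zfpm1 encodes FOG1, the cofactor that binds GATA factors. Both of its probes lie on chromosome 8, forward strand, at 124861087 to 124861146 and 124861092 to 124861151 (mm9). They overlap and are not independent readings. The brighter, A_55_P2048518, had signals of 709 ± 71.1 untreated, 921 ± 92.3 with RA plus D3V and 775 ± 77.6 with A2. The other had 669 ± 67.1, 896 ± 89.7 and 686 ± 68.7. The raw signals barely differ between the untreated and A2 arrays, whose 75th percentiles were 359 and 274. After scaling, the differences from untreated were 0.51 and 0.42 on the A2 array and 0.68 and 0.72 on the RA plus D3V array. Zfpm1 was thus modestly above its untreated level on both treated arrays.

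Klf1, the erythroid Krüppel-like factor that activates the adult beta globin gene, is read by probe A_51_P168630 at chromosome 8, 87428881 to 87428940, forward strand (mm9). Its signals were 12.7 ± 5.41 untreated and 18.6 ± 5.49 with RA plus D3V, neither well above background, and 24.2 ± 4.93 with A2, which was. The nominal bound is 1.60-fold higher on the A2 array than untreated, and 1.38-fold higher than on the RA plus D3V array. On the log2 scale these are 0.68 and 0.46, and the software errors of the spot differences are 0.68 and 0.52. The plain differences of these spots were 1.32 and 0.46, so the second bound is the plain difference and not a sure minimum. In the value table the plain differences were 0.58 and 0.59, the first smaller than on the scanner arrays. Klf1 was near the detection limit wherever it was measured.

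Gfi1b encodes a zinc-finger repressor needed for red cell and platelet formation. It is read by probe A_51_P370678 at chromosome 2, 28464982 to 28465041, reverse strand (mm9). Its signal was 343 ± 34.6 untreated, 404 ± 40.7 with RA plus D3V and 26.8 ± 4.77 with A2. The A2 signal was still well above background, though its level of -3.36 was close to the lowest such level on that array (-4.19). Gfi1b was 9.79-fold lower on the A2 array than on the untreated array (difference -3.29 ± 0.30). It was 1.45-fold higher on the RA plus D3V array (0.54 ± 0.21). With normexp background correction, whose offset on every spot shrinks the folds of dim spots most, the A2 difference was -1.81, still a decrease of more than 2-fold. In the value table the A2 difference was -3.17 and the RA plus D3V difference 0.41.

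Tal1 and Lmo2 are parts of the DNA-bound complex that joins E-box and GATA sites in blood cells. Tal1, read by probe A_55_P2106690 at chromosome 4, 114744219 to 114744278, forward strand (mm9), stayed at background on all 3 arrays. Its signals were 17.3 ± 5.41 untreated, 17.0 ± 5.03 with RA plus D3V and 9.90 ± 4.05 with A2, and it has no fold. Lmo2, the bridging adaptor, is read by probe A_55_P2083988 at chromosome 2, 103821857 to 103821916, forward strand (mm9). Its signals were 14690 ± 1469 untreated, 19926 ± 1993 with RA plus D3V and 15304 ± 1530 with A2. Lmo2 differed from untreated by 0.74 ± 0.20 on the RA plus D3V array and by 0.45 ± 0.20 on the A2 array. In the value table the A2 difference was 0.20, below the SD between control sources.

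Nfe2 encodes the haematopoietic subunit of NF-E2, which pairs with small MAF proteins. It is read by probe A_51_P515965 at chromosome 15, 103078838 to 103078897, reverse strand (mm9). Its signals were 6774 ± 677 untreated, 9637 ± 964 with RA plus D3V and 9490 ± 949 with A2. Both treated arrays were high and the untreated array low. Nfe2 was 1.83-fold higher on the A2 array (0.87 ± 0.20) and 1.75-fold higher on the RA plus D3V array (0.81 ± 0.20). Against the value table's control both differences shrank to 0.58. The A2 array minus the RA plus D3V array gave 0.064 ± 0.20, and -0.0014 in the value table.

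Runx1, the runt-domain factor of the core binding factor, is read by 2 probes that do not overlap on chromosome 16, reverse strand (mm9). The brighter, A_55_P2183438 at 92605785 to 92605844, had signals of 3733 ± 373 untreated, 3999 ± 400 with RA plus D3V and 1901 ± 190 with A2. The other, A_51_P206585 at 92604413 to 92604472, had 1983 ± 198, 1796 ± 180 and 776 ± 77.8. On both probes the A2 signal was lowest. The differences on the A2 array were -0.59 ± 0.20 and -0.97 ± 0.20, and those on the RA plus D3V array 0.40 ± 0.20 and 0.16 ± 0.20. Neither probe reached 2-fold against untreated.

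Myb, the oncogene of immature blood cells, is read by probe A_55_P2017826 at chromosome 10, 20844736 to 20844795, reverse strand (mm9). Its signals were 8964 ± 896 untreated, 9271 ± 927 with RA plus D3V and 3821 ± 382 with A2. The A2 array was low and the others close together. Myb was 1.79-fold lower on the A2 array (-0.84 ± 0.20) and 1.27-fold higher on the RA plus D3V array (0.35 ± 0.20). The value table gave -0.88 and 0.38.

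**Figure D2:**
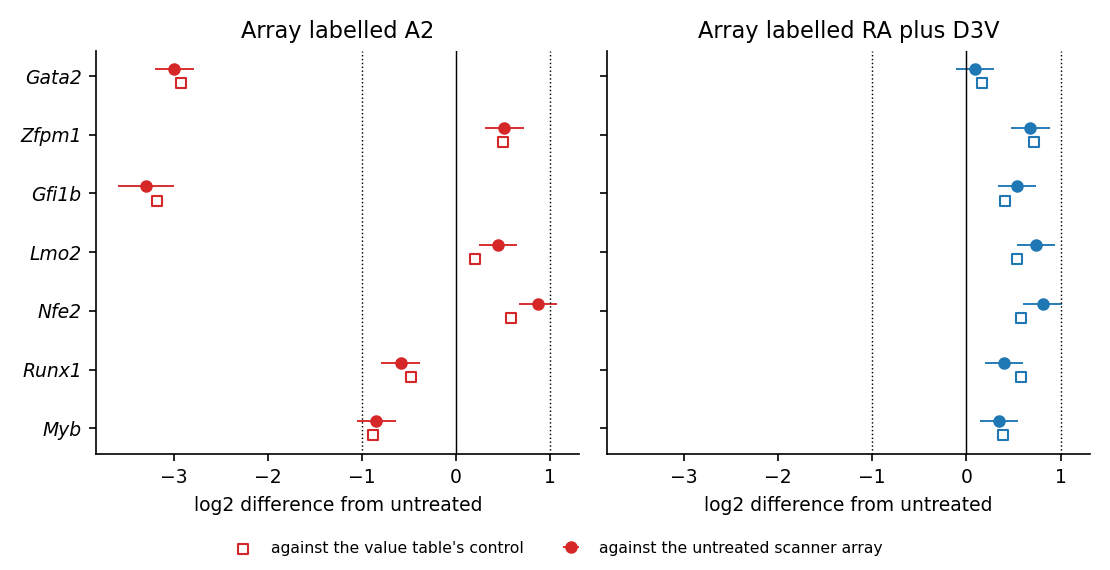
Difference from untreated (horizontal axis, log2) of the 7 factors measured on all arrays, with the A2 array at left and the RA plus D3V array at right. Circles use the untreated scanner array, with the scanner software's error as bars, squares the authors' value table with its own control, and dotted lines mark 2-fold; Gata2 and Gfi1b lie near -3 at left, and all 7 lie between 0.092 and 0.81 at right.

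The untreated level of Gfi1b, Runx1 and Myb lay between the treated arrays, which were thus further apart than either was from untreated. For Gata2 the difference between the treated arrays was close to that of the A2 array from untreated (-2.99). Of the 7 factors, 3 were at least 2-fold lower on the A2 array than on the RA plus D3V array and 0 at least 2-fold higher, where 4.04% and 3.78% of 17628 genes were. Gfi1b was 14.2-fold lower (-3.83 ± 0.30), Gata2 8.48-fold lower (-3.08 ± 0.21) and Myb 2.29-fold lower (-1.19 ± 0.20). Runx1 straddled the threshold, at -0.99 ± 0.20 on its brighter probe and -1.12 ± 0.20 on the other. Lmo2 (-0.29), Zfpm1 (-0.16) and Nfe2 (0.064) lay within 2-fold. The median of the 7 was -0.99, against -0.019 over all genes.

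**Figure D3:**
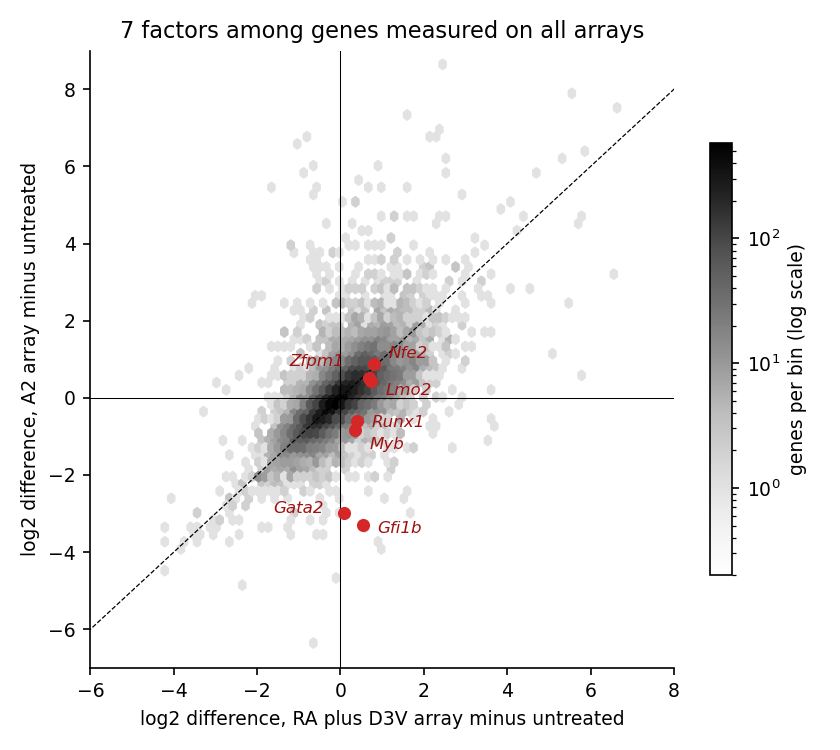
Difference from untreated on the A2 array (vertical axis, log2) against that on the RA plus D3V array (horizontal axis, log2) for 17003 genes well above background on all 3 arrays, shaded by genes per bin, with 7 factors in red. Both axes share the untreated array; the dashed line marks equal differences, and Gata2 (0.092, -2.99) and Gfi1b (0.54, -3.29) lie far below it.

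The genes closest to each factor in the pair of differences from untreated were sought among 6543 brighter RefSeq genes, by Euclidean distance on the log2 scale. Over 3 arrays such likeness is weak and says nothing of function. Gata2 was closest to the cytolinker Plec (-2.63 on the A2 array, -0.062 on the RA plus D3V array, distance 0.40) and the cyclin Ccnd1 (-3.19, -0.44, distance 0.57). Gfi1b was closest to Dmkn (-2.62, 1.04, distance 0.84) and Plec (distance 0.89). The other factors had much closer neighbours. Myb was closest to Lzts3 (distance 0.016) and Shc4 (0.055), though the value table put those genes at -1.61 and -1.70 on the A2 array, well away from Myb. The Lzts3 probe has an alternating G and T stretch. Runx1 was closest to Tm6sf1 (0.070) and Plbd1 (0.079). Near Nfe2 were the corepressor Tle3 (0.0053) and Prss53 (0.021). Lmo2 had Smim4 (0.012) and Decr2 (0.043), and Zfpm1 had Pebp1 (0.020) and the adaptor Tyrobp (0.022).

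RNA of genes for partner proteins mostly stayed within 2-fold of untreated, but so did that of most measured genes. On the A2 array 7.92% of 17279 genes lay above that range and 6.46% under it. With RA plus D3V those shares were 7.78% and 5.06%, so the partners did not stand out. Of 24 genes for complex partners 23 were measured, and on the A2 array 0 were at least 2-fold higher and 1 at least 2-fold lower (median -0.12). That 1 was Cbfa2t3, which encodes the corepressor ETO2 of TAL1 and GATA complexes. Its levels were 2.27 untreated, 3.24 with RA plus D3V and 1.17 with A2. Its difference was -1.11 on the A2 array and 0.97 on the RA plus D3V array, and the treated arrays differed by -2.08. On the RA plus D3V array 0 of 23 partners were at least 2-fold away (median -0.18). The LMO2 partner Ldb1 (0.15 on the A2 array, 0.44 on the RA plus D3V array), the TAL1 relative Lyl1 (0.42, 0.20) and the RUNX1 partner Cbfb (-0.12, -0.41) lay within 2-fold. So did the lysine demethylase Kdm1a, a GFI1 and GFI1B cofactor (-0.75, -0.64).

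Relatives of the factors did not all follow them. Gfi1, the paralog of Gfi1b, was above its untreated level on both arrays (0.92 and 0.82). Runx2 was lower on the A2 array (-1.08) and lay at 0.30 on the RA plus D3V array, the same directions as Runx1. Runx3 went the other way on both arrays (0.38 and -0.32). Lmo1 was lower on both (-2.33 and -1.36). Among Krüppel-like factors, Klf3 (1.77), Klf2 (1.73) and Klf10 (1.21) were at least 2-fold higher on the A2 array. With RA plus D3V, Klf4 (2.28), Klf2 (1.18) and Klf10 (1.01) were. In the value table Klf10 (0.80 and 0.69) and Runx2 (-0.92) did not reach 2-fold. Of 29 relatives 20 were measured. On the A2 array 3 exceeded untreated by at least 2-fold and 2 were as far below it (median 0.035). With RA plus D3V these counts were 3 and 1 (median 0.25). Over all measured genes the shares were 7.92% and 6.46% on the A2 array and 7.78% and 5.06% with RA plus D3V. Gata3 was well above background on the A2 array alone, and Gata4, Gata6, Tal2 and Zfpm2 on none.

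Genes of the red cell program were partly detected: 23 of 32 were well above background untreated and 21 of 32 on each treated array. The globins lay below untreated on both treated arrays. Of 32 erythroid target genes on the array, 20 were measured against untreated on either treated array. At 2-fold, 0 were above and 2 below untreated on the A2 array (median -0.22): the carbonic anhydrase Car2 (-1.73) and the globin Hbb-b1 (-1.06). Over all measured genes, 7.92% were at least 2-fold above and 6.46% below untreated on the A2 array. With RA plus D3V, E2f2 (1.25) was the 1 higher and Hbb-b1 (-1.11) the 1 lower (median -0.076). The shares of all genes were 7.78% and 5.06% with RA plus D3V, so these small counts do not stand out. Car2 could not be counted there: its level was -1.84 untreated and -3.98 with RA plus D3V, not well above background. Alas2 (-3.64) and Car1 (-3.53) were above background on the untreated array alone. With normexp, 0 erythroid targets were at least 2-fold lower on either treated array. The globins Hba-a1 (-0.75 and -0.71) and Hbb-bt (-0.97 and -0.79) lay below untreated by less than 2-fold, and globin copies may share signal. The heme synthesis genes Urod (0.66, 0.40) and Ppox (0.72, 0.28) lay above. The red cell membrane genes Epb42 and Ank1 were not well above background on any array. The list's summed signal, in units of the 75th percentile, was 123 untreated, 132 with RA plus D3V and 122 with A2. That sum rests largely on genes that many cells use, such as Bcl2l1 (levels 4.90, 4.97 and 4.75) and Urod (4.23, 4.64 and 4.89), and did not follow the globins.

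Mast cell and basophil genes include Gata2 itself. On the A2 array 8 of 16 were measured: Mitf (2.32) and Kit (1.70) were at least 2-fold higher, and Gata2 and the histidine decarboxylase Hdc (-1.82) lower. With RA plus D3V, 0 of 10 were 2-fold away. The shares of all measured genes higher and lower at 2-fold were 7.92% and 6.46% on the A2 array. They were 7.78% and 5.06% on the RA plus D3V array. The mast cell protease gene Cpa3 (levels -2.88 untreated, -2.38 RA plus D3V) and the receptor Il1rl1 (-3.11, -3.28) were well above background on those arrays and not on the A2 array. Others of the list lay within 2-fold there: Srgn (0.56), Tpsb2 (0.41), Slc18a2 (0.36) and Mcpt8 (-0.19). The defining genes Ms4a2, Fcer1a, Mcpt4 and Cma1 were not well above background on any array. The summed signal of the list was 163 untreated, 180 with RA plus D3V and 255 with A2, most of it from Srgn (levels 7.20, 7.35 and 7.76), a proteoglycan gene of many blood cells. The part of such cells in the Gata2 difference was not tested. T and NK cell genes had a summed signal of 11.3 untreated, 7.23 with RA plus D3V and 8.20 with A2, though Il7r among them was higher on both treated arrays and Cd5 stayed near untreated on the A2 array (-0.0026). Their part was not tested either.

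Stem and progenitor genes went both ways. On the A2 array 4 of 15 measured were at least 2-fold higher, Kit, Hoxa9 (1.19), Egr1 (1.11) and Myct1 (1.04), and 2 lower, Flt3 (-2.28) and the sialomucin Cd34 (-1.30; median 0.55). Cd34 was above untreated on the RA plus D3V array (0.67), where Egr1 (1.26) was the 1 higher and Flt3 (-1.80) the 1 lower (median 0.30). Myct1 was dim (level -3.10 untreated) and lay at 0.17 in the value table, and the 4 higher became 2 with normexp. Cd34 thus had the order of Myb and Runx1: lowest on the A2 array and highest on the RA plus D3V array. Megakaryocyte and platelet genes were high on both treated arrays. On the A2 array 4 of 6 were at least 2-fold higher, led by the platelet chemokine Pf4 (4.50), Vwf (3.70) and Thbs1 (2.32). With RA plus D3V, 4 of 7 were, led by Pf4 (5.68), the integrin Itgb3 (2.86) and Vwf (1.91). The defining genes Itga2b, Gp1ba, Gp5, Gp6 and Gp9 were not well above background on any array. The summed signal was 1.89 untreated, 26.9 with RA plus D3V and 23.9 with A2.

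Of all measured genes, 6.46% were at least 2-fold lower than untreated on the A2 array and 7.92% higher. With RA plus D3V those shares were 5.06% and 7.78%. Of 20 genes linked to MYB, 8 were lower than untreated by at least 2-fold on the A2 array and 3 higher by as much (median -0.44). The lowest were the granule peroxidase Mpo (-2.22), Myc (-1.59) and the kinase Cdk6 (-1.43), and the highest were the interleukin receptor Il7r (2.72), Ets1 (2.16) and Kit. Bcl2 (-1.09) was read by a probe with an alternating G and T stretch. On the RA plus D3V array 3 were higher and 3 lower at 2-fold (median -0.18): Il7r (1.47), Ets1 (1.30) and Id2 (1.29) against the cyclin Ccna2 (-1.70), Mpo (-1.57) and Ccnb1 (-1.26). Genes linked to RUNX1 were at least 2-fold lower on the A2 array in 3 of 14 cases and higher in 0 (median -0.29): Mpo, Cdkn1a (-1.05) and Socs3 (-1.02, or -0.93 in the value table). With RA plus D3V, Mpo alone of the 14 was at least 2-fold away (median 0.15). The colony stimulating factor receptor Csf1r lay at 0.69 and 0.59, and the myeloid factor Cebpa at -0.98 and 0.41. Mpo and Elane belong to both lists.

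**Figure D4:**
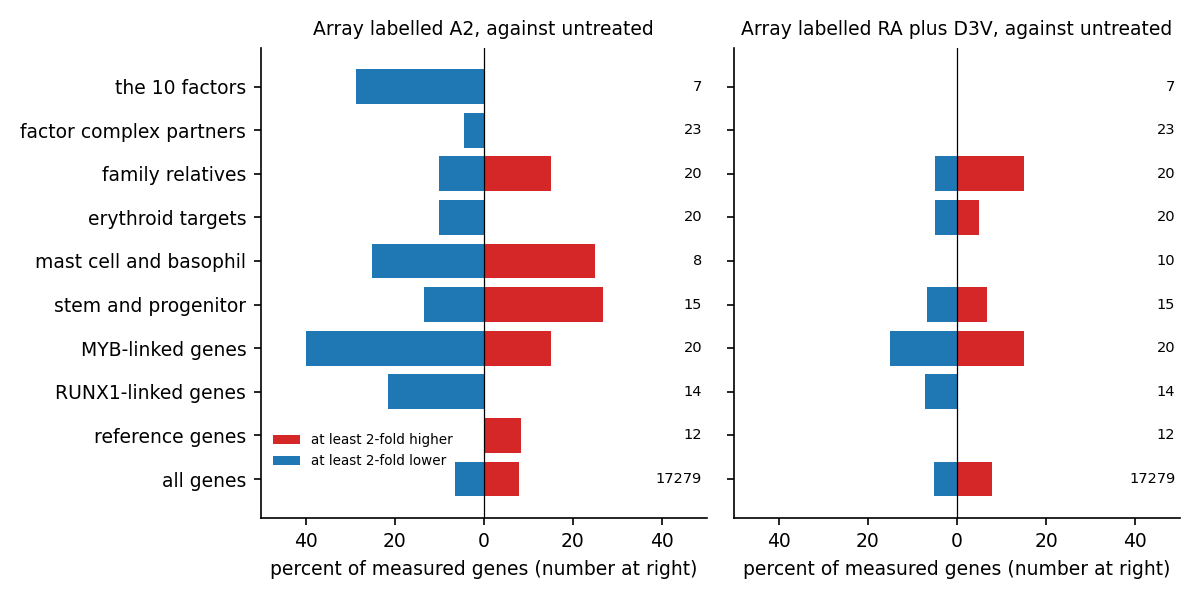
Share of measured genes (horizontal axis, percent) at least 2-fold higher (red, right) or lower (blue, left) than untreated, for the 10 factors, 8 lists and all genes, on the A2 array (left panel) and the RA plus D3V array (right panel). Numbers at the right edge are the genes measured; the factors have 2 of 7 lower at left and 0 at right, and lists share some genes.

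Proximal promoters are shown for Gata2 and Gfi1b, the factors at least 2-fold lower on the A2 array against untreated, and for the upstream start of Runx1, which holds the printed RUNX matches. Each runs from 250 bases before to 50 bases after a start site, 5′ to 3′ on the gene's strand (RefSeq, GRCm38.p6, a later build than the probe positions). Capitals mark GATA letters, which are GATA with A or T before it and A or G after it, and RUNX letters, which are TGTGGT or its variant with C as the third base, TGCGGT, on either strand.
Gata2, chr6:88193641-88193940, forward strand: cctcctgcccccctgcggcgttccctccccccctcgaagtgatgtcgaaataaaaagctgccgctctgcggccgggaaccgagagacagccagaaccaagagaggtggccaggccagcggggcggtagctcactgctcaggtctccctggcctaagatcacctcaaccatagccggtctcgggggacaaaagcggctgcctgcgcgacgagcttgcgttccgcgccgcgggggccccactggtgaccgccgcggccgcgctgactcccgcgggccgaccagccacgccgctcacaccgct
Gata2, chr6:88198414-88198713, forward strand: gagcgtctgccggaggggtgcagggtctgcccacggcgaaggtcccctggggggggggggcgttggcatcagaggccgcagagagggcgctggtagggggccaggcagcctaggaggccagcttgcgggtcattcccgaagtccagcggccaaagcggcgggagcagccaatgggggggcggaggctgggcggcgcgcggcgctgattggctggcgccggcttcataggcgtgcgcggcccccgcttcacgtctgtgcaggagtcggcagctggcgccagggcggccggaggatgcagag
Gfi1b, chr2:28621933-28622232, reverse strand: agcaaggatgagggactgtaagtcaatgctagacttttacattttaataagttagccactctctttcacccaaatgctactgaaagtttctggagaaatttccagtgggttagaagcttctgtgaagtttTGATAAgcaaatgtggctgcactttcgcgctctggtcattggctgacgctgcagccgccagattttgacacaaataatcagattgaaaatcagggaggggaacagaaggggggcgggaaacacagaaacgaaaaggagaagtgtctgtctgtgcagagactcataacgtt
Runx1, chr16:92826025-92826324, reverse strand: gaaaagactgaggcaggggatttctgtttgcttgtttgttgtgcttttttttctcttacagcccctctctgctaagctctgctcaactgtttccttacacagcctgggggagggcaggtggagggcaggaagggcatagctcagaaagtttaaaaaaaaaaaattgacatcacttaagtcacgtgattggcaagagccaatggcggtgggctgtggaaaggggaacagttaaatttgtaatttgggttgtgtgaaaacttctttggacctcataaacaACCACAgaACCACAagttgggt
Promoters of 8 of the 10 factors were in the RefSeq table, 11 in all. GATA letters were in 3 of the 11, those of Gfi1b, Klf1 and 1 of Tal1, and in 29.8% of 32851 promoters. RUNX letters were in 2 of the 11, those of Klf1 and upstream Runx1, and in 22.4% of all. KLF letters (CCNCNCCC) were in 9 of 11 and 49.5% of all, MYB letters (AACGG or AACTG) in 3 of 11 and 55.1%, and GFI1 letters (AAATC) in 4 of 11 and 35.9%, each on both strands. A match is a description of these letters and shows no binding. The Gfi1b promoter had a GC content of 44.3%, and those of Gata2 69.3% and 73.7%. The arrays do not show which start site was used.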

How the data were processed

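RNA of 3 samples was labelled with Cy3 from 50 ng of total RNA and read on 1-colour arrays, 1 per condition. Spot intensity in the deposited files was extracted with Agilent Feature Extraction 11.5.1.1, per the submitters' processing notes. It comes, per the file headers, after background subtraction and spatial detrending and before any scaling of 1 array to another, with probe positions in mm9. The deposited flags of 0 or 1 mark spots well above background, uneven or saturated. The value table the authors deposited also holds intensity, with quartiles that match across its 3 columns. It was taken as quantile normalized intensity. Its other processing is not given in the sources used here.

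Control spots and 25 uneven spots were left out. Signals were divided by the array's 75th percentile and taken to log2. The probe with the highest mean over the 3 arrays stood for a gene. Names came from RefSeq accessions, symbols or synonyms. A gene counts as measured where both arrays compared flag its probe above background, and the threshold was 2-fold. With 1 array a condition no test was run. The ± of a difference combines the scanner software's errors of both spots; it does not cover differences between cultures. Python 3.11.15, pandas 2.3.3 and limma 3.58.1 (normexp) were used.

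The factors and all lists were chosen with earlier results of these data known. Named genes were all 10 factors, the lists' extremes in each comparison, any partner, relative, erythroid or mast cell gene, and the 2 nearest patterns of each factor. Of the other lists, Myct1, Bcl2 and defining markers were chosen after their values were seen. Some items are not reported here. Alternatives were normexp with an offset of 50, other scalings (median, quantile), the mean of a gene's probes, no filter or a stricter filter on dim probes, the value table, and leaving out probes with 8 or more alternating G and T bases.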

Additional observations from a re-analysis of the deposited data

How the results depend on the processing

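The counts of factors at least 2-fold away and the medians of the factors were recomputed under 8 alternatives in each of 3 comparisons, and 68 of 72 values stayed within 1.5 times (counts) or within the SD of 0.281 between control sources (medians). With no filter on dim probes, 1 factor (Klf1, not well above background untreated) was at least 2-fold higher on the A2 array against untreated, and the median of A2 against RA plus D3V was -0.49 over 10 factors. With the stricter filter, Gfi1b was not counted against untreated on the A2 array, which left 1 factor at least 2-fold lower and a median of -0.071. Runx1 brought the count of factors lower on the A2 array than on the RA plus D3V array from 3 to 4 with quantile normalization, with the mean of its probes and in the value table. Of 167 differences of single factors 5 moved by more than that SD: Gata2 and Gfi1b with normexp (-2.61 and -1.81 against untreated, -2.62 and -2.23 against RA plus D3V) and Nfe2 in the value table (0.58). A sign changed in 1, that of Nfe2 between the treated arrays. Of 624 counts over the lists 73 moved by more than 1.5 times. The counts over all genes at 2-fold were 1369 above and 1117 below untreated on the A2 array, 1344 and 875 on the RA plus D3V array, and 667 and 713 between the treated arrays. These became 951 and 721, 746 and 531, and 486 and 334 with normexp. With the stricter filter they were 925 and 646, 720 and 500, and 474 and 358, and with no filter 3742 and 2648, 4461 and 2044, and 1787 and 2938. With 1 array a condition, differences between cultures cannot be judged, and dim probes (Gata1, Klf1, Tal1) limit the folds that can be given. No paired analysis was possible because each group has 1 sample.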

Other observations

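Marker genes of other blood cells also differed between the arrays. At 2-fold, 7.92% of all measured genes were above and 6.46% below untreated on the A2 array. With RA plus D3V the shares were 7.78% and 5.06%. Of 13 monocyte and macrophage genes 12 were measured against untreated. On the array labelled A2 7 of them exceeded untreated by at least 2-fold and 2 fell short of it by as much (median 1.34), among them the complement gene C1qb (2.04), with Cx3cr1 lowest (-3.05). On the array labelled RA plus D3V 8 were higher and 2 lower (median 1.78), led by C1qc (3.50) and C1qb (3.02), with Cx3cr1 at -2.44. The list's summed signal, in units of the 75th percentile, was 187 untreated, 418 with RA plus D3V and 385 with A2.

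The next lists can be set against 6.46% of all genes lower and 7.92% higher on the A2 array. On the RA plus D3V array those shares were 5.06% and 7.78%. Genes of T and NK cells were at least 2-fold below untreated in 5 of 8 on the A2 array (median -1.61). On the RA plus D3V array 4 of 7 were (median -1.05), and 1 was higher on each array. Gzma (-2.09) and Cd3d (-1.86) were lowest on the A2 array, that 1 being the receptor Il7r. B cell genes had 1 of 6 at least 2-fold higher on the A2 array, the adaptor Blnk (3.16; median 0.34), and 0 of 6 on the RA plus D3V array (median 0.13). The B cell factor genes Pax5 and Ebf1 were not well above background on any array. Of 9 stromal and endothelial genes 3 were measured, with 0 at least 2-fold away on the A2 array (median 0.59) and 1 higher, Lepr (1.04, but 0.25 in the value table), on the RA plus D3V array (median 0.81). Reference genes had medians of 0.13 and 0.11, with Pgk1 (1.65 on the A2 array) the 1 of 12 at least 2-fold away.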
